A study of Sus scrofa with 8 samples.

Results

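The genes described here encode the slow (type I) forms of the contractile proteins of skeletal muscle, namely the slow myosin heavy chain MYH7, its light chains MYL2 and MYL3, the slow myosin-binding protein C gene MYBPC1, the slow troponin subunits TNNC1, TNNI1 and TNNT1, and the slow tropomyosin gene TPM3. They were chosen by symbol, as the probe sets whose platform annotation gave exactly 1 gene symbol equal to one of the 8 names. The rule found 10 probe sets for these 8 genes, 3 of them for TPM3, among 6765 genes that had such a probe set on the array. All 10 passed the filter on dim probe sets. Where a gene had several probe sets it was represented by the one of highest mean signal.

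Total RNA of the longissimus dorsi, the long back muscle, was measured on 8 one-colour Affymetrix arrays, with 4 Korean native pigs (KNP, 7 months old) and 4 Yorkshire pigs (6 months old). The arrays of a breed are labelled as biological replicates, and pigs of both breeds were kept under the same conditions, per the labels. The study set out to find genes expressed differently between the muscles of the breeds. Since every KNP animal was 1 month older, effects of age and of breed cannot be told apart.

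Skeletal muscle is a mosaic of slow and fast fibres. Each fibre type builds its sarcomeres from its own set of myosin, troponin and tropomyosin genes, so the transcripts of the slow set are commonly read as a measure of slow fibre content. Slow fibres contract slowly, resist fatigue and depend on oxidative metabolism. The longissimus of the pig is mainly a fast, glycolytic muscle that holds slow fibres in islets. In a piece of whole muscle, fewer fibres of a type and less RNA per fibre cannot be told apart. Probe set signals are not comparable between genes, so levels are compared between animals only.

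Markers of skeletal muscle were bright on every array. Of the skeletal muscle fibre markers, 4 of 5 had a probe set, and their summed signal was 170055 to 267113 in KNP and 204397 to 304443 in Yorkshire. MYH7, MYL2, MYL3 and TNNC1 are also heart muscle genes. The heart troponin genes TNNT2 and TNNI3 were among the dim probe sets left out of the tests, at 3.97 to 83.4 and 12.04 to 179 in KNP and 19.8 to 118 and 14.6 to 317 in Yorkshire. The 95th percentile of the negative control probe sets was 91.5, and the lowest signal of any slow fibre probe set was 259.7. The summed signal of the 5 heart markers on the array, which are none of the slow genes, was 503.1 to 764.4 in KNP and 739.0 to 955.4 in Yorkshire. Their part in the slow gene signals was not tested. For all 9 marker lists examined the summed signals of the breeds overlapped. Of the single markers tested only MBP, in the nerve list, did not overlap between breeds, against 2.25% of all genes. It had 548.2 to 1187 in KNP and 189.5 to 491.4 in Yorkshire (limma adjusted p = 0.999). Array quality varied within both breeds. Hybridisation controls, which are bacterial transcripts spiked in at hybridisation, were bright on replicates 1 and 3 of both breeds (13.42 to 13.70 on the log2 scale) and dim on replicates 2 and 4 (12.50 to 12.81). The 3' signal of housekeeping controls exceeded the 5' signal most on KNP 1 and Yorkshire 3, by 3.33 and 3.03 log2 units, against 0.87 to 1.73 on the other 6 arrays.

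**Figure D1:**
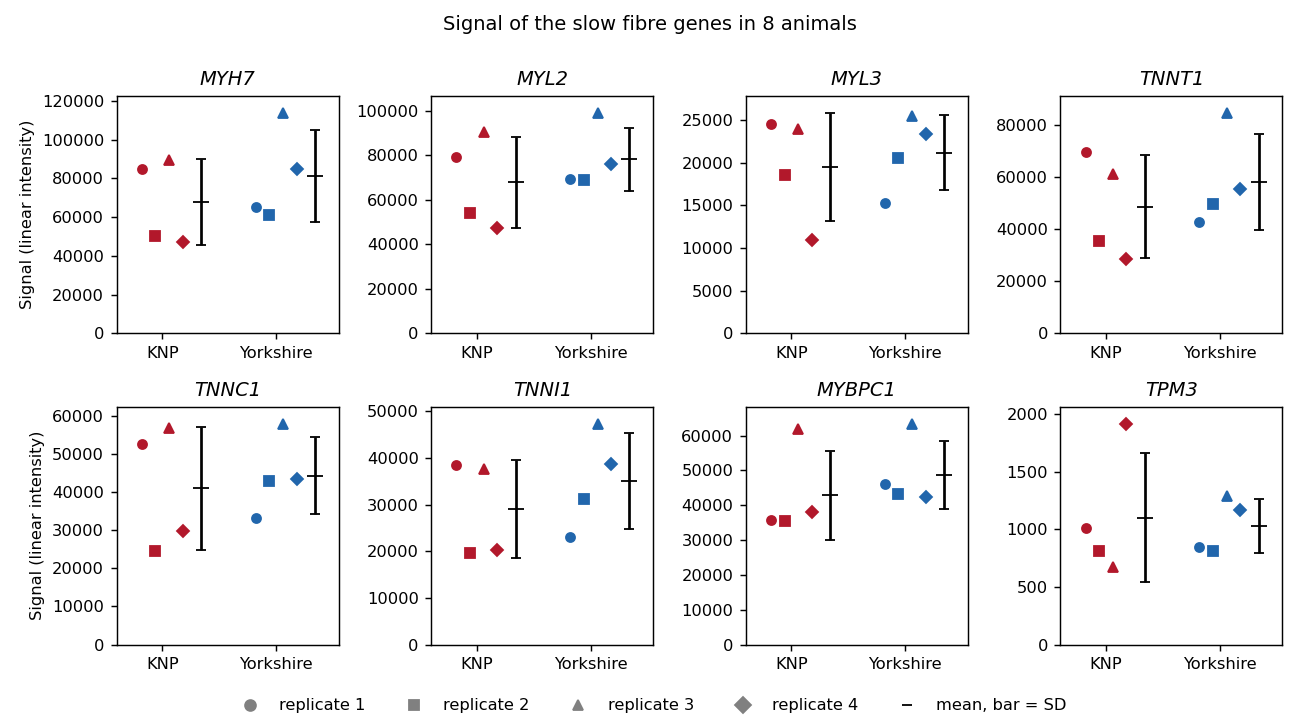
Signal (linear intensity, y axis from 0) of the representing probe set of each slow fibre gene in 4 KNP (red) and 4 Yorkshire (blue) animals, with marker shapes for the replicate numbers and a black mark for the mean with its SD. In 7 genes Yorkshire 3 is the highest animal and KNP 2 or KNP 4 the lowest, while for TPM3 KNP 4 is the highest.

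Of the thick filament genes, the myosin genes varied between animals in a similar way, and MYBPC1 differed from them in part. None had a breed difference that passed the test. MYH7, the motor protein of slow fibres, had signals of 84681, 50180, 89304 and 46973 in KNP 1 to 4, and of 65109, 61351, 113708 and 84943 in Yorkshire 1 to 4. KNP fell into a high pair (1 and 3) and a low pair (2 and 4), the low pair lay below every Yorkshire animal, and the breeds overlapped. The means were 67784 ± 22298 in KNP and 81278 ± 23970 in Yorkshire (SD, n = 4 each). The log2 change, KNP minus Yorkshire on the log2(signal + 32) scale, was -0.28 (SE 0.27, 95% interval -0.87 to 0.31, limma adjusted p = 0.999).

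MYL2, the regulatory light chain of slow and ventricular myosin, followed nearly the same order, with 79321, 54098, 90574 and 47434 in KNP and 69522, 68857, 99018 and 75953 in Yorkshire. KNP 2 and 4 were again the lowest and Yorkshire 3 the highest. Its log2 change was -0.24 (SE 0.23, 95% interval -0.75 to 0.27). MYL3, the essential light chain, had 24577, 18522, 23884 and 10940 in KNP and 15301, 20552, 25484 and 23295 in Yorkshire. Here KNP 4 stood lowest, and Yorkshire 1 was the only other animal below KNP 2. The log2 change of MYL3 was -0.16 (SE 0.27, 95% interval -0.74 to 0.42).

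MYBPC1 encodes the slow form of myosin-binding protein C, which ties myosin to the thick filament backbone. Its signals were 35654, 35608, 61969 and 38069 in KNP and 45996, 43204, 63198 and 42320 in Yorkshire. Replicate 3 stood above the other animals of its breed in both breeds, and KNP 1, which was high for the myosin genes, was low for MYBPC1. The log2 change was -0.21 (SE 0.22, 95% interval -0.69 to 0.28).

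The slow troponin genes, whose products switch the thin filament on when calcium rises, varied as MYH7 did. TNNC1, the calcium-binding subunit, had 52705, 24594, 56851 and 29725 in KNP and 33133, 42922, 57779 and 43493 in Yorkshire. TNNI1, the inhibitory subunit of slow fibres, had 38577, 19560, 37584 and 20331 in KNP and 23027, 31207, 47196 and 38696 in Yorkshire. TNNT1, the subunit that anchors the complex to tropomyosin, had 69699, 35390, 61158 and 28500 in KNP and 42646, 49482, 84556 and 55372 in Yorkshire. In all 3 genes KNP 1 and 3 were far above KNP 2 and 4, Yorkshire 1 was the lowest Yorkshire animal, and Yorkshire 3 was the highest of all.

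The log2 changes of the troponin genes were -0.18 for TNNC1 (SE 0.28, 95% interval -0.79 to 0.44), -0.30 for TNNI1 (SE 0.29, 95% interval -0.92 to 0.33) and -0.30 for TNNT1 (SE 0.30, 95% interval -0.96 to 0.36). TNNT1 had the widest range of the representing probe sets, with a ratio of 2.97 between the highest and the lowest animal, and MYBPC1 the narrowest, with 1.77.

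TPM3 is the slow tropomyosin gene and also gives rise to tropomyosins of non-muscle cells. Over all 8 animals it did not follow the others in its representing probe set. Its representing probe set had 1010, 809.0, 676.2 and 1910 in KNP and 842.8, 814.3, 1291 and 1169 in Yorkshire. KNP 4, the animal with the lowest MYH7, was the highest for TPM3. The log2 change was 0.0089 (SE 0.30, 95% interval -0.65 to 0.67), and it was -0.29 without KNP 4. A second probe set also peaked in KNP 4, at 1923 against 733.8 to 974.3 in the other KNP animals, and had 662.6 to 1367 in Yorkshire (log2 change 0.17, SE 0.32). The third peaked in KNP 3 instead, at 1590 against 438.0 to 691.9 in the other KNP animals, and had 259.7 to 918.2 in Yorkshire (log2 change 0.46, SE 0.42).

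The 3 TPM3 probe sets therefore disagreed on which animals were high. The first 2 correlated over the 8 animals at Pearson r = 0.816 (exact permutation p = 0.0153, adjusted over the 3 pairs 0.0458) but at Spearman rho = 0.429 (exact permutation p = 0.299, adjusted 0.449), and r was -0.00189 without the 2 animals farthest from the median, so the relation rested on those animals. The third had r = -0.00358 (exact permutation p = 0.992, adjusted 0.992) and -0.431 (exact permutation p = 0.284, adjusted 0.426) with the others, and rho = 0.0476 (exact permutation p = 0.935, adjusted 0.935) and -0.524 (exact permutation p = 0.197, adjusted 0.449). Without the 2 farthest animals those r were 0.572 and -0.507. The transcripts that each of these probe sets reads were not determined here.

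Of the 8 genes 0 passed an adjusted p of 0.05, and 0 of the 14399 probe sets tested did (0% of 5331 genes). The smallest unadjusted p among the 8 genes was 0.319 by limma, for MYL2, and 0 of 8 were under an unadjusted p of 0.05, against 3.43% of all genes tested. In 0 of 8 did the breeds fail to overlap, against 2.25% of all genes. The change was below 0 in 7 of 8, with a median of -0.22, against 50.4% of all genes and a median of -0.00255. Among the 137 other genes at least as bright as MYL3, the change was below 0 in 59.9%, with a median of -0.04. The 95% intervals, each for a single gene without adjustment, reached down to between -0.96 and -0.65 log2 units. Their upper ends lay between 0.27 and 0.67. With 4 animals per breed, changes within an interval remained compatible with the values of its gene. The size of change that the adjusted test could detect was not determined.

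**Figure D2:**
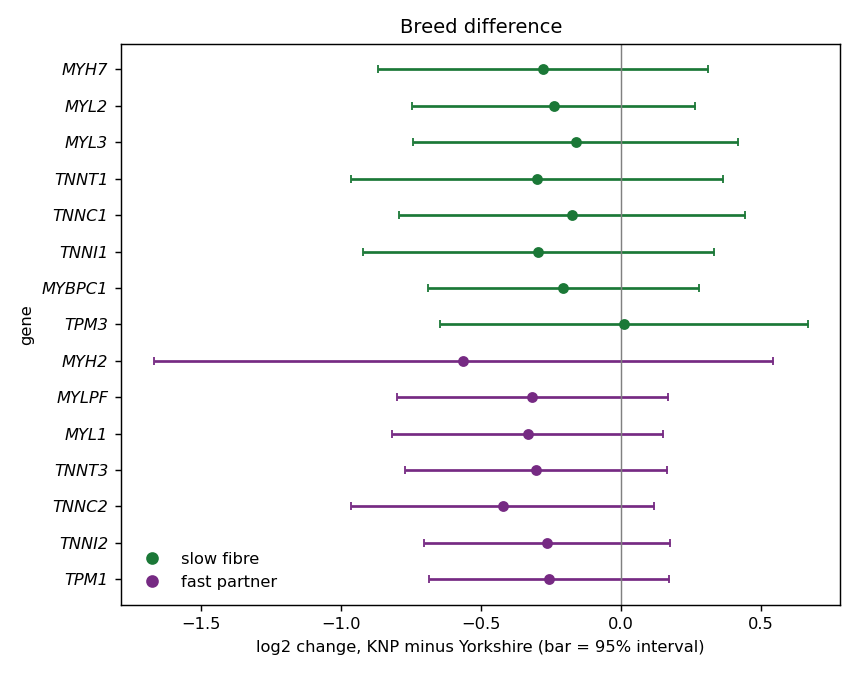
Log2 change, KNP minus Yorkshire (x axis), with its 95% interval for the 8 slow fibre genes (green) and their 7 fast partners (purple). Every interval includes 0, and the slow genes lie between -0.30 and 0.0089.

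The KNP animals were more spread than the Yorkshire animals in all 8 slow genes. The SD of log2 signal was 0.49 in KNP and 0.41 in Yorkshire for MYH7, 0.44 and 0.24 for MYL2, 0.60 and 0.33 for TNNC1, and 0.64 and 0.32 for TPM3. The median ratio of the SDs was 1.57 for the slow genes, 0.935 for all genes and 0.929 for the 137 bright ones, and the KNP SD was the larger in 45.6% of all genes. With 4 animals per breed and genes that vary together, this difference in spread was not tested. The pooled within-breed SD of the slow genes was 0.33 to 0.53, against a median of 0.36 for all genes and 0.26 for the bright ones.

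In 6 of the 8 genes the high and low KNP animals split by the brightness of the hybridisation controls. MYBPC1 and the representing probe set of TPM3 differed from them. Within KNP, the bright arrays (1 and 3) exceeded the dim ones (2 and 4) by 0.84 log2 units for MYH7, 0.74 for MYL2, 0.77 for MYL3, 1.02 for TNNC1, 0.93 for TNNI1 and 1.04 for TNNT1. For MYBPC1 the difference was 0.35, and for the representing probe set of TPM3 it ran the other way, at -0.57. The third TPM3 probe set was instead higher on the bright KNP arrays. Its log2 signals were 9.50 and 10.66 in KNP 1 and 3, and 9.05 and 8.88 in KNP 2 and 4. Within Yorkshire the difference between bright and dim arrays was 0.25 for MYH7, 0.20 for MYL2, 0.018 for TNNC1 and 0.20 for TNNT1. For MYL3 and TNNI1 it ran the other way, at -0.15 and -0.076. It was 0.33 for MYBPC1 and 0.094 for the representing probe set of TPM3. Between breeds, the change within the bright arrays, 2 per breed, was above 0 in 6 of 8 genes, from 0.015 for MYH7 to 0.32 for TNNC1 among the 6, with MYBPC1 at -0.20 and TPM3 at -0.32. Within the dim arrays it was below 0 in 7 of 8, from -0.80 for TNNI1 to -0.22 for MYBPC1, with TPM3 at 0.34. The difference between bright and dim arrays was not tested, and the part of array brightness in the spread was not tested.

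Of the correlations of the 8 genes with the 3' to 5' ratio, 0 passed. The largest was that of TNNT1, at Pearson r = 0.706 (exact permutation p = 0.0549, adjusted over the 8 genes 0.228) and Spearman rho = 0.643 (exact permutation p = 0.0962, adjusted 0.256). Without the 2 arrays farthest from the median ratio r was 0.147, so it rested on those arrays. Leaving out KNP 1 and Yorkshire 3, the arrays of highest ratio, gave a median change of -0.21 over the 8 genes, with MYBPC1 at -0.00052 and TPM3 at 0.13.

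**Figure D3:**
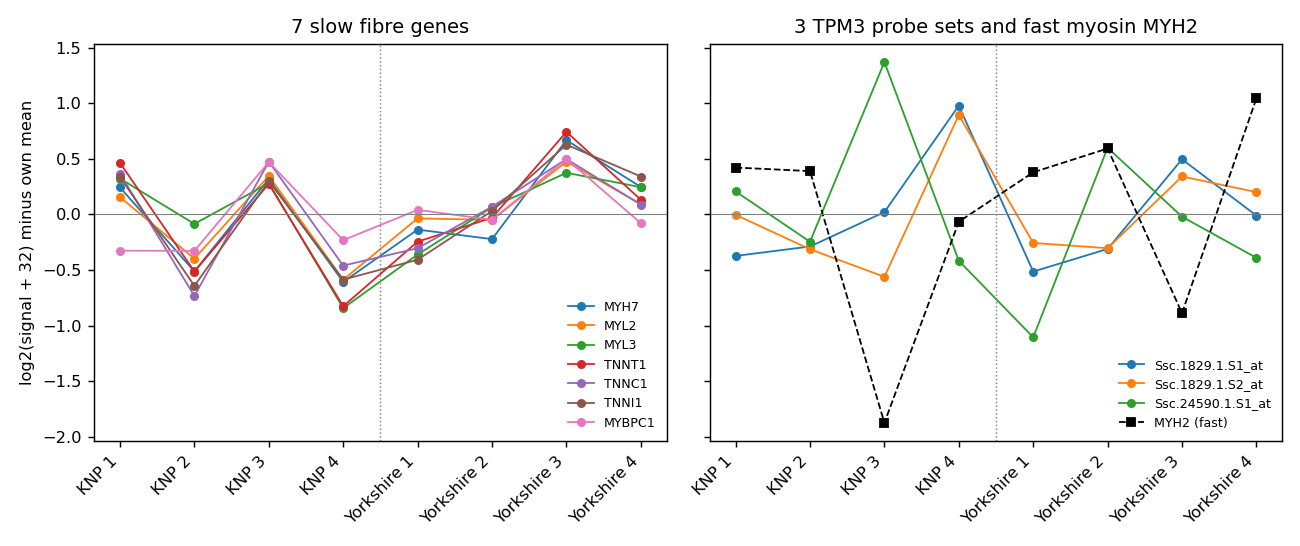
Log2(signal + 32) minus the gene's own mean over 8 animals (y axis) for 7 slow fibre genes (left) and for the 3 TPM3 probe sets with the fast myosin MYH2 (right), KNP 1 to 4 left of the dotted line and Yorkshire 1 to 4 right of it. Of the 7 slow genes 6 run nearly in parallel, while MYBPC1 departs from them and lies below its own mean in KNP 1. All 7 peak in Yorkshire 3, whereas MYH2 is lowest in KNP 3 and Yorkshire 3.

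Across the 8 animals 6 of the slow genes varied together and MYBPC1 less closely, and these 7 were taken as a set. Their mean profile, as the deviation from each gene's own mean, was 0.22, -0.46, 0.35 and -0.59 log2 units in KNP 1 to 4 and -0.21, -0.03, 0.55 and 0.15 in Yorkshire 1 to 4. Yorkshire 3 was the highest animal for 7 of 7, and the lowest was KNP 4 for 4 and KNP 2 for 3. The 21 pairs of these genes had Pearson r of 0.416 to 0.968, with a median of 0.898. After subtracting each breed's mean the median was 0.897, so the median was nearly the same within breeds. Of the 21 pairs 15 passed as measured and 14 with breed means subtracted, when MYL3 with TNNC1 had r = 0.751 (permutation p = 0.0293, adjusted 0.0548). The p-values with breed means subtracted are approximate, because such values are not freely exchangeable between the breeds. Blocking on the brightness of the hybridisation controls gave a median of 0.857.

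The tightest pair was MYH7 with its own light chain MYL2, at r = 0.968 and rho = 0.976 (exact permutation p = 4.96e-05 and 0.000397, adjusted over the 28 pairs of the 8 genes 0.00139 and 0.00556). Without the 2 animals farthest from the median r was 0.944. TNNC1 and TNNI1, which sit side by side in the troponin complex, had r = 0.954 and rho = 0.905 (exact permutation p = 0.000347 and 0.00456, adjusted 0.00222 and 0.0116), and r was 0.896 without the 2 farthest animals. All 15 pairs among MYH7, MYL2, MYL3, TNNC1, TNNI1 and TNNT1 had r of 0.762 or more and rho of 0.857 or more, with adjusted exact permutation p of at most 0.0402 for r and 0.0200 for rho, and r of 0.621 to 0.963 without the 2 farthest animals.

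MYBPC1 stood at the edge of this group. Of its 6 pairs with the others 0 passed, and r was 0.416 with MYL3 (exact permutation p = 0.304, adjusted 0.387; rho = 0.381, exact permutation p = 0.360, adjusted 0.480) and 0.749 with MYL2 (exact permutation p = 0.0341, adjusted 0.0596; rho = 0.643, exact permutation p = 0.0962, adjusted 0.150). Without the 2 farthest animals these were 0.560 and 0.657. The 7 pairs with the representing probe set of TPM3 had r of -0.463 to -0.073 and rho of -0.048 to 0.310, and 0 passed. Without the 2 farthest animals r was -0.220 to 0.546. Within breeds, with 4 animals each, r was -0.859 to -0.392 in KNP but 0.615 to 0.967 in Yorkshire. Correlations of the other TPM3 probe sets, which disagreed with the representing one, with the slow genes were not computed.

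**Figure D4:**
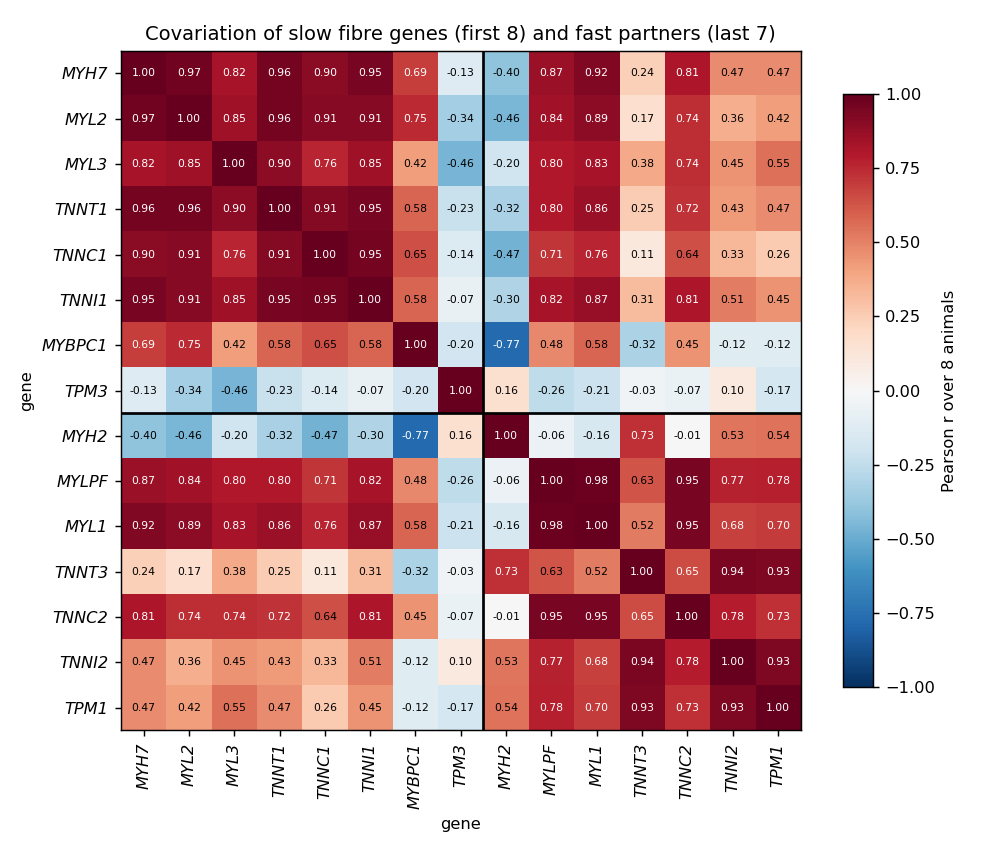
Pearson r of log2(signal + 32) over the 8 animals for each pair of the 8 slow fibre genes and their 7 fast partners (colour and printed value, with black lines between the sets). The 6 slow genes other than MYBPC1 and TPM3 form a block of r from 0.762 to 0.968, while MYH2 has r of -0.469 to -0.196 with those 6. Other fast partners overlap the block, with r of 0.759 to 0.924 for MYL1, 0.713 to 0.865 for MYLPF and 0.642 to 0.807 for TNNC2. For TNNT3, TNNI2 and TPM1 the r with those 6 is 0.106 to 0.551. The fast partners hold blocks as tight, with r of 0.951 to 0.983 among MYL1, MYLPF and TNNC2. Among TNNT3, TNNI2 and TPM1 r is 0.932 to 0.942.

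Covariation was also found among other bright genes, at a lower median r. Some fast partners varied together as tightly as the slow genes, with r of 0.951 to 0.983 among MYL1, MYLPF and TNNC2. Over all 5331 genes the median r of a pair was 0.00853, and 0.218% of pairs reached 0.898, the median of the 21 slow pairs. Those 21 pairs leave out TPM3, whose r with the others was negative. The median over all 28 pairs of the 8 slow genes was 0.792, and the share of pairs reaching that value was not computed. Among the 137 other genes at least as bright as MYL3 the median was 0.372, and 3.39% of pairs reached 0.898. The mean profile of 14 sarcomere genes that slow and fast fibres share, such as TTN, NEB and DES, ran from -0.23 in Yorkshire 2 to 0.23 in KNP 1, with -0.22, 0.05 and -0.19 in KNP 2 to 4 and -0.010, 0.15 and 0.22 in Yorkshire 1, 3 and 4. With that profile subtracted, the 21 slow pairs kept a median r of 0.799, and after quantile normalisation 0.796.

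Relative to the shared sarcomere genes, the mean of the 7 slow genes was -0.00264, -0.24, 0.31 and -0.41 in KNP 1 to 4 and -0.20, 0.20, 0.40 and -0.07 in Yorkshire 1 to 4. On that scale Yorkshire 3 and KNP 3 were the highest animals, and KNP 4 and KNP 2 the lowest. The median change of the 8 slow genes between breeds was then -0.16.

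One marker list of another cell type had its highest levels on the same animals. The summed signal of the 5 endothelial markers, all on the array, was 4422, 3317, 4123 and 3682 in KNP 1 to 4 and 3545, 3442, 5330 and 3650 in Yorkshire 1 to 4. Its 3 highest animals, Yorkshire 3, KNP 1 and KNP 3, were also the 3 highest for the slow profile. The single markers did not agree. Of the 4 tested, PECAM1, the brightest, had r = 0.853 with the mean profile of all 8 slow genes, VWF 0.560, TEK 0.507 and CDH5 -0.568. The part of vessel content in the slow gene signals was not tested.

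Each slow gene was next set beside the fast gene with the same role. Partners were on the array for 7 of the 8 genes, with MYH2, a myosin heavy chain of fast oxidative fibres, beside MYH7. All 7 fast partners were also lower in mean log2 signal in KNP without passing, from -0.56 for MYH2 (SE 0.51) to -0.26 for TPM1 (SE 0.20), all at limma adjusted p = 0.999. A dimmer TPM1 probe set had 1067 to 1465 in KNP and 1509 to 1723 in Yorkshire without overlap (log2 change -0.40, limma adjusted p = 0.999). Yorkshire 4 was the highest animal for 7 of 7, and KNP 4 the lowest for 6, so the fast genes peaked in another animal than the slow ones. The highest signal of any probe set was also largest on Yorkshire 4, at 204990, and smallest on KNP 4, at 66561. The part of such differences between arrays at the bright end in these signals was not tested.

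MYH2 had the widest range of the fast genes, with 73339, 71733, 14914 and 52310 in KNP and 71197, 82600, 29581 and 112891 in Yorkshire. KNP 3 and Yorkshire 3, which were the 2 highest animals for MYH7, MYL2, TNNC1 and MYBPC1, were the 2 lowest for MYH2. Its r with the slow genes was -0.775 with MYBPC1 (exact permutation p = 0.0285, adjusted over 8 genes 0.228; rho = -0.524, exact permutation p = 0.197, adjusted 0.935) and -0.403 with MYH7 (exact permutation p = 0.335, adjusted 0.640; rho = -0.262, exact permutation p = 0.536, adjusted 0.935). Without the 2 animals farthest from its median these turned to 0.364 and 0.724, so the opposition rested on KNP 3 and Yorkshire 3.

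**Figure D5:**
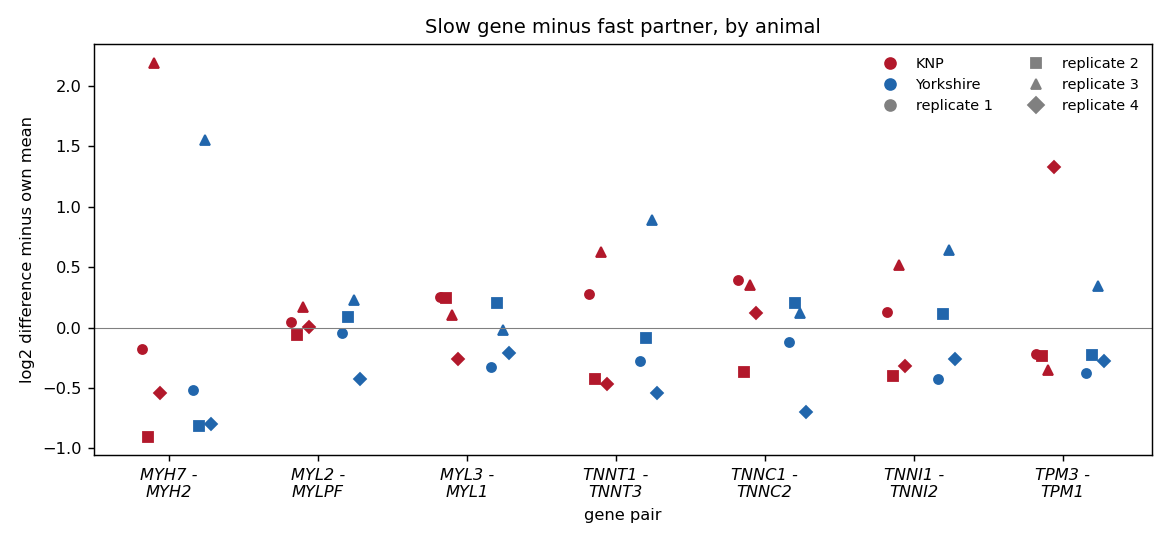
Log2 difference between each slow gene and its fast partner minus the pair's own mean over 8 animals (y axis), for 7 pairs, KNP in red left of Yorkshire in blue, with marker shapes for the replicate numbers. The breeds overlap in every pair, and KNP 3 and Yorkshire 3 stand 2.19 and 1.56 above the mean for MYH7 minus MYH2.

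The difference between slow gene and fast partner was read only as a deviation from its own mean over the animals. For the myosin heavy chains, MYH7 minus MYH2, it was -0.18, -0.90, 2.19 and -0.54 in KNP and -0.52, -0.82, 1.56 and -0.80 in Yorkshire, so both replicates numbered 3 lay far above the rest. For the troponin T genes, TNNT1 minus TNNT3, it was 0.28, -0.43, 0.62 and -0.47 in KNP and -0.28, -0.09, 0.89 and -0.54 in Yorkshire. For the troponin I genes, TNNI1 minus TNNI2, it was 0.13, -0.40, 0.52 and -0.32 in KNP and -0.43, 0.11, 0.64 and -0.26 in Yorkshire. In these 3 pairs KNP 3 and Yorkshire 3 were the 2 highest animals.

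Of the 7 pairs, the slow light chains kept closest to their fast partners, which also had r of 0.924 (MYL1) and 0.865 (MYLPF) with MYH7. MYL2 minus MYLPF spanned 0.66 log2 units over all animals and MYL3 minus MYL1 spanned 0.58, against 3.09 for the heavy chains, 1.43 for troponin T, 1.07 for troponin I and 1.09 for TNNC1 minus TNNC2. MYL2 and MYLPF had r = 0.838 (exact permutation p = 0.0107, adjusted over 7 pairs 0.0373; rho = 0.857, exact permutation p = 0.0107, adjusted 0.0538), with r = 0.710 without the 2 farthest animals. MYL3 and MYL1 had r = 0.826 (exact permutation p = 0.00858, adjusted 0.0373; rho = 0.762, exact permutation p = 0.0368, adjusted 0.0858), with r = 0.843 without the 2 animals farthest from the median of MYL3. TNNT1 and TNNT3 had r = 0.251 (exact permutation p = 0.557, adjusted 0.650; rho = 0.262, exact permutation p = 0.536, adjusted 0.626).

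Between breeds, the slow minus fast difference was above 0 in 6 of 7 pairs and overlapped in 7 of 7. It was 0.29 (SE 0.90) for MYH7 minus MYH2, 0.25 (SE 0.27) for TNNC1 minus TNNC2, 0.17 (SE 0.17) for MYL3 minus MYL1 and 0.08 (SE 0.15) for MYL2 minus MYLPF. TNNT1 minus TNNT3 was at 0.0051 (SE 0.41) and TNNI1 minus TNNI2 at -0.03 (SE 0.32), and TPM3 minus TPM1 at 0.27 (SE 0.43) followed the high TPM3 signal of KNP 4. No difference exceeded about 1 standard error, and the heavy chain value was -0.40 without KNP 3 and 0.85 without Yorkshire 3.

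Other genes of slow and oxidative fibres were described from a list of 17, of which 9 were on the array and 6 were tested. Of these, 0 passed in either direction and all 6 were below 0, with a median of -0.20. ATP2A2, the calcium pump of the slow fibre reticulum, had 39804 ± 15619 in KNP and 45449 ± 14929 in Yorkshire (SD, n = 4 each), and a log2 change of -0.22. The r with the mean profile of the 8 slow genes over the 8 animals was 0.891 for ATP2A2 and 0.875 for FHL1, but 0.555 for PLN, 0.464 for TPM2, 0.431 for CA3 and 0.405 for SLN. It was as high for some fast and shared genes, at 0.876 for MYL1 and 0.884 for TTN. The log2 change was -0.28 for TPM2, the beta tropomyosin gene, -0.19 for CA3, the carbonic anhydrase of slow fibres, and -0.21 for the LIM domain gene FHL1. Of 15 fast fibre genes 9 were tested, 0 passed, and 9 were below 0 (median -0.32). Of 20 shared sarcomere genes 14 were tested, 0 passed, and 10 were below 0 (median -0.20). In this list UNC45B, a myosin chaperone, had a log2 change of 0.71, the leiomodin gene LMOD3 one of 0.43 and SMPX one of -0.44.

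Of 31 known regulators of fibre type 12 were tested, 0 passed, and 7 were below 0 (median -0.04). The smallest unadjusted p belonged to RCAN1, an inhibitor of the phosphatase calcineurin, at a log2 change of -1.36 (1483 ± 173.8 in KNP and 4370 ± 2421 in Yorkshire, without overlap), followed by PPARGC1A, a coactivator of oxidative metabolism, at -0.96, and the histone deacetylase gene HDAC5 at -0.61 (limma adjusted p = 0.999 for all 3). Signals of PPARGC1A were 658.7 ± 102.5 in KNP and 1602 ± 1292 in Yorkshire (SD, n = 4 each). Their r with the mean profile of the 8 slow genes was 0.469. PPP3CA and PPP3CB, the catalytic subunits of calcineurin, were at 0.018 and -0.062.

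Outside the 8 genes, the 6 genes most like their mean profile over the 8 animals were SDE2 (r = 0.978), NDUFA4 (0.958), a small subunit of the respiratory chain, COL6A2 (0.933), a chain of type VI collagen, UBR7 (0.929), GATD1 (0.925) and LONP2 (0.924), a protease of peroxisomes. NDUFA4 had 26020 ± 5979 in KNP and 28428 ± 6011 in Yorkshire (SD, n = 4 each), and SDE2 had 570.7 ± 91.5 in KNP and 633.8 ± 112.6 in Yorkshire. The 3 least alike were PDK3 (-0.947), a kinase that inhibits pyruvate dehydrogenase, the Golgi calcium pump gene ATP2C1 (-0.947) and PAIP1 (-0.939). PDK3 had 463.1 ± 198.3 in KNP and 385.4 ± 172.3 in Yorkshire (SD, n = 4 each). These names were picked by r from 5331 genes on 8 animals and are a description.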

How the data were processed

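Each array's deposited table held an intensity (linear scale) for 24123 probe sets. The submitters' processing notes name GCOS 1.3 but no summarisation or scaling step. The trimmed mean of the deposited intensity values was 499.8 on every array, so a change is relative to the array's other probe sets. Symbols came from GEO's platform annotation, which can be old: 10069 probe sets outside the controls had 1 symbol, 198 had several and 13732 had none. Positions are not reported, because no build is named for the array.

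Values were analysed as log2(signal + 32). Controls (124) and the dimmest 40% of the other probe sets (limit near 98.6) were left out, leaving 14399. The medians of the arrays spanned 0.379 log2 units, within the 0.5 allowed before further normalisation. Breeds were compared with limma 3.58.1 (R 4.3.3; lmFit, then eBayes with trend) over all 8 arrays with no covariate, and p-values were adjusted by Benjamini-Hochberg over all 14399 (threshold 0.05). Precision is limited by the number of arrays, with a median SE of 0.283. The fit was tested on simulated data. Correlations were tested over all orders of the arrays (exact, two-sided). With breed means subtracted the same procedure gives approximate p-values only.

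The 8 genes, the lists and the rule for named genes were chosen with earlier results of these data known. That rule took every probe set of the 8 genes, their fast partners, at most 3 genes of smallest p per list, and the 6 most and 3 least similar genes. ATP2A2, PLN, SLN, PPP3CA, PPP3CB, TTN, NEB, DES, MBP and the endothelial markers were named after their values were seen. Alternatives were other pseudocounts, no filter, quantile normalisation, median centring, blocks for the replicate number and the hybridisation controls, no trend, the mean of a gene's probe sets and left-out arrays.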

Additional observations from a re-analysis of the deposited data

Results flagged for a closer look

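In a check for 1 animal standing apart from the other 3 of its breed, 48 groups of 4 log2 values were examined (10 slow probe sets, 7 fast partners and 7 slow minus fast differences in each breed), and 5 exceeded Dixon's critical value for groups of that size. Chance flags about 5% of such groups, and the groups are not independent. For MYBPC1, KNP 3 lay above the other KNP animals with a gap of 0.879 of the range. For TNNI2, the fast troponin I gene, KNP 1 lay above the others with a gap of 0.898, and Yorkshire 4 lay above the other Yorkshire animals with 0.850. For MYH7 minus MYH2, Yorkshire 3 stood above the other Yorkshire animals with 0.873, where its MYH2 signal was 29581 against 71197 to 112891. For TPM3 minus TPM1, KNP 4 stood above the other KNP animals with 0.922.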

How the results depend on the processing

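Deviations from the breed means correlated at -0.0434, 0.306, 0.102 and 0.0536 between arrays numbered 1 to 4, so the numbers were not taken as pairs. The hybridisation controls did match by number, at 13.42, 12.77, 13.50 and 12.50 in KNP and 13.43, 12.81, 13.70 and 12.57 in Yorkshire (log2). With the replicate number as a block 1 probe set passed, which is none of the slow genes, and 0 passed under the other settings. The block left the median change of the 8 slow genes at -0.22 and gave a median r of 0.777 over their 28 pairs. That median r was 0.792 as reported, 0.656 with quantile normalisation and 0.672 with the mean of shared sarcomere genes subtracted, an alternative chosen after seeing the data. Within the arrays of bright hybridisation controls the change turned to 0.015 for MYH7, 0.031 for MYL2, 0.29 for MYL3, 0.12 for TNNT1, 0.32 for TNNC1, 0.21 for TNNI1 and -0.32 for TPM3, and with quantile normalisation it was 0.010 for MYL2. Quantile normalisation also brought the median change to -0.13 and MYH7 to -0.029, and median centring gave a median change of -0.15. The causes of these shifts were not tested.

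Leaving out 1 array at a time gave a median change of -0.40 to -0.09 and a median r of 0.768 to 0.890. Single genes ranged from -0.43 to -0.10 for MYH7, -0.40 to -0.09 for MYL2, -0.31 to 0.092 for MYL3 (above 0 without KNP 4), -0.50 to -0.07 for TNNT1, -0.36 to 0.039 for TNNC1 (above 0 without KNP 2), -0.48 to -0.13 for TNNI1, -0.40 to -0.07 for MYBPC1 and -0.29 to 0.20 for TPM3 (below 0 without KNP 4, Yorkshire 1 or Yorkshire 2). The median slow minus fast difference, 0.17, ranged from 0.03 to 0.30, and was -0.07 with quantile normalisation. With the 3' to 5' ratio as a covariate, also added after seeing the data, the median change was -0.22.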
